A study of Mus musculus with 6 samples.

Results

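The 45 genes described here encode the machinery of DNA replication and of the passage into S phase. They comprise the Mcm, Gins, Orc, Rfc and Rpa complexes, the replicative polymerases and primase, the helicase loaders, Pcna, Lig1 and Fen1, the enzymes that supply deoxynucleotides, and the E cyclins. They were taken by name from a fixed list of symbols, not by their level or change. All 45 were measured, among 18194 genes with a probe set of exactly 1 symbol, and the brightest probe set over the 6 arrays stood for each gene. RNA was profiled on Affymetrix arrays from 3 kinds of cultured mouse testis stem cell, with 2 arrays each. The kinds are multipotent (mSSC), intermediate (iSSC) and unipotent germ-line (SSC) spermatogonial stem cells, and SSC served as the reference. The donors were ICR males 3 to 5 days old, with no allele or drug named for any group. Every group was cultured on feeder fibroblasts of mouse embryos arrested with mitomycin, and cells were taken for RNA mechanically, by their shape. Colonies of flattened or embryonic stem cell shape were kept in germ stem cell medium or moved to embryonic stem cell medium, and the labels do not link an array to a medium or passage. Nor do they say whether the 2 arrays of a kind stem from different cultures or animals, so a p-value here reflects the spread of these samples alone, which may be technical.

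Replication is prepared in G1, when the origin recognition complex (Orc) with Cdc6 and Cdt1 loads rings of Mcm2 to Mcm7 onto DNA. At the G1/S transition cyclin E and its kinase, together with a second kinase, turn these rings into active helicases by recruiting Cdc45 and the Gins complex, after which polymerase alpha and primase start each strand and polymerases delta and epsilon extend it on the Pcna clamp that Rfc loads. Many of these genes are transcribed in late G1 by E2f factors once the Rb proteins release them, so that their mRNA is low in resting cells. Pluripotent stem cells are known for a short G1 phase with high cyclin E, while cultured spermatogonial stem cells divide slowly.

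Values are log2 signals as the authors deposited them, on which 1 unit is a 2-fold change, and the array medians lay between 5.83 and 5.93. Differences are between group means, with the SE of the limma fit over all 6 arrays and n = 2 arrays per group. Genes with a limma p under 0.05 after Benjamini-Hochberg adjustment across the 18194 genes were called, and signals of different probe sets are not comparable as amounts. Nanog, a factor of the pluripotency network, was at 11.58 and 12.44 in mSSC, against 3.25 to 3.62 in iSSC and SSC, which lies below the lower quartile of every array (4.23 to 4.38). The germ line factor Zbtb16 was at 6.07 and 6.11 in mSSC, against 10.56 to 12.41 in the other arrays, so these 2 markers set mSSC apart as labelled. Of 10 measured spermatogonia markers 8 were called lower in mSSC than in SSC and 1, Etv5, higher. All 10 pluripotent cell markers were called higher. Over all genes 10.6% were called lower and 8.22% higher. SSC replicate 1 stood apart from the other arrays in the 3′ bias of its control transcripts. The 3′ end of the pyruvate carboxylase control exceeded its 5′ end by 2.73 there, against 0.88 to 1.32 in the other 5 arrays, and that of beta-actin by 0.89, against 0.12 to 0.61. Markers of several other cell types also moved with the groups. The summed signal of 12 macrophage markers (log2 of the sum) was 10.76 to 11.89 in mSSC, 13.55 to 14.34 in iSSC and 15.38 to 15.96 in SSC. Ptprc and C1qb were near background on both mSSC arrays. Such a sum is carried by its brightest probe sets. In mSSC Laptm5 alone was at 10.02 and 11.27, while the median of the 12 markers was 5.27 and 5.43. For 12 fibroblast markers the summed signal was 13.11 to 14.09 in mSSC, 14.05 to 14.46 in iSSC and 15.82 to 16.48 in SSC. No marker of that list was near background on any array. In mSSC Fn1 alone was at 12.59 and 12.29, while the median of these 12 was 7.90 and 9.47. For the 45 replication genes the summed signal was 17.14 to 17.23 in mSSC, 16.87 to 16.97 in iSSC and 16.21 to 16.59 in SSC. In mSSC against SSC 11 of the 12 macrophage markers and 8 of the 12 fibroblast markers fell, and in iSSC against SSC 6 and 1 fell. Over all genes 10.6% were called lower in mSSC against SSC and 1.87% in iSSC against SSC. The summed signal of 11 Sertoli cell markers was 10.31 to 10.74 in mSSC, 11.93 to 12.90 in iSSC and 14.11 to 14.21 in SSC, 7 fell in mSSC against SSC, and Cldn11 and Aldh1a1 were near background on both mSSC arrays. Of 6 markers of peritubular smooth muscle 3 fell in mSSC against SSC, and 2 had positive differences that did not pass. The summed signal of the 6 was 10.21 to 10.38 in mSSC, 10.84 to 11.41 in iSSC and 12.03 to 14.43 in SSC. The 4 measured Leydig cell markers differed within groups, and none was called in mSSC against SSC. Their summed signal on replicates 1 and 2 was 8.18 and 8.09 in mSSC, 10.99 and 7.80 in iSSC, and 10.975 and 9.35 in SSC. The part of RNA from these cell types, feeders included, or of degraded RNA in the differences below was not tested. In bulk RNA, fewer cells of a type and less RNA per cell cannot be told apart.

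In mSSC against SSC 40 of the 45 replication genes had positive differences, and 27 of the 45 did not pass the test. The other 18 rose, which is 40% against 8.22% of all genes called higher, and the called genes came from every functional group except the Mcm ring and the pair Lig1 and Fen1. The largest rises were those of Rrm2, 6.90-fold, Gins2, 5.87-fold, Orc5, 4.87-fold, and Pole2, 4.65-fold. In 34 of the 45 genes (75.6%) both mSSC arrays lay above both SSC arrays, as in 32.3% of all genes. The median difference was 0.84, against 0.08 over all genes. None was called lower by limma, against 10.6% of all genes. At an unadjusted limma p under 0.05 29 were higher and 1 lower, against 15.4% and 18% of all genes. The number called higher was 9 when SSC replicate 1, mSSC replicate 2 or either iSSC array was left out, 10 without mSSC replicate 1 and 22 without SSC replicate 2. Gins2, Mcm10, Orc5, Rfc5, Pola1, Pold2, Pole2, Rrm2 and Ccne1 were called in each of the 13 alternative settings tried. The other 9, Gins1, Gins4, Orc2, Orc6, Cdt1, Rfc2, Pola2, Prim2 and Rpa1, were not called without SSC replicate 1, without mSSC replicate 2 or without either iSSC array, and their highest adjusted p over the settings was 0.11 to 0.22.

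In iSSC against SSC most replication genes also had positive differences, but none passed the test as higher. Both iSSC arrays lay above both SSC arrays for 33 of the 45 genes (73.3%), as for 32.3% of all genes, and the median difference was 0.59, against 0.10 over all genes. By limma 0 of 45 were called higher, against 0.225% of all genes. 1 gene was called lower, Pola1, which is 2.22% against 1.87% of all genes. At an unadjusted limma p under 0.05 23 were higher and 3 lower, against 8.28% and 8.7% of all genes. Without SSC replicate 1 the median difference was 0.42, and without SSC replicate 2 it was 0.76 and 4 genes, Orc1, Cdc6, Prim1 and Rrm2, were called higher.

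In mSSC against iSSC 7 of the 45 genes rose (15.6%, against 7.53% of all genes): Gins2, Orc2, Orc5, Rfc1, Pola1, Pold2 and Pole2. None was called lower by limma, against 9.6% of all genes. At an unadjusted limma p under 0.05 14 were higher and 4 lower, against 13.3% and 17.7% of all genes. Both mSSC arrays lay above both iSSC arrays for 26 genes (57.8%, against 29.6% of all genes) and below them for 10 (22.2%, against 33.2%). The count called higher was 3 without mSSC replicate 1 and 2 without either iSSC replicate, and Gins2 and Pola1 were called in every setting tried. Orc2, Orc5, Rfc1, Pold2 and Pole2 were not called without either iSSC array. The comparisons share arrays, so their counts are not independent of each other.

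The group means were also ordered for each gene. The mean was highest in mSSC for 31 genes (68.9%, against 41.1% of all genes), highest in iSSC for 12 (26.7%, against 34.1%) and highest in SSC for 2, Tyms and Ccne2 (4.44%, against 24.9%). It was lowest in SSC for 35 genes (77.8%, against 42.2%). The 12 genes with their highest mean in iSSC were Mcm2, Mcm5, Cdc45, Rfc3, Rfc4, Prim1, Pold1, Pold3, Pole, Rpa2, Fen1 and Rrm1, and for none of them was a difference called. For 4 of these the order depended on the probe set. Mcm2, Mcm5 and Pold3 had other probe sets that were higher in mSSC than in iSSC, by 0.18, 0.42 and up to 0.30. Another Pold1 probe set had its highest mean in SSC. The order also depended on the probe set for genes with their highest mean in mSSC. Mcm3, Mcm4, Mcm6, Prim2 and Rfc2 had other probe sets, above the median of all probe sets, that were higher in iSSC. Of the genes with their lowest mean in SSC, Orc4 had other such probe sets lowest in iSSC, and Cdc45 had another lowest in mSSC.

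**Figure D1:**
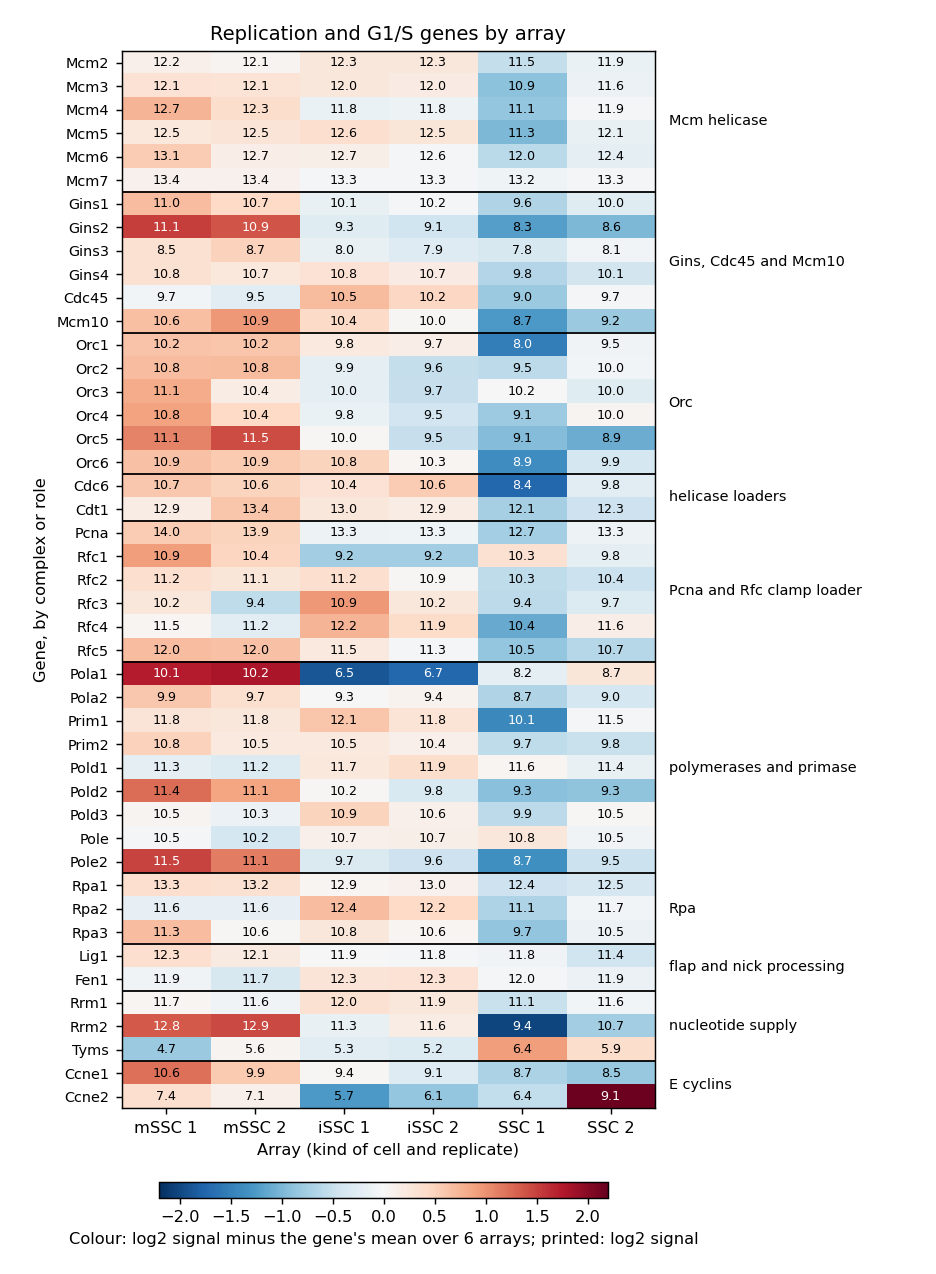
log2 signals of the 45 replication and G1/S genes (rows, by complex or role) on the 6 arrays (columns, mSSC, iSSC, SSC). Colour is the signal minus the mean of that gene over 6 arrays, and the printed number is the signal itself; SSC replicate 1 is the bluest column for most genes, Pola1 is lowest in iSSC and Ccne2 is high in SSC replicate 2.

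Promoter sequence was examined because the genes share a textbook regulator. RefSeq promoter windows of the assembly GRCm38.p6, 300 bases each from 250 before to 50 after the start, were found for 37 of the 45 genes. The letters TTTCCCGC or TTTGGCGC, which E2f factors bind, were searched on both strands. They occurred in the windows of 13 of the 37 genes (35.1%), against 2.77% of the 14453 measured genes in the table. These were Cdc6, Cdt1, Gins3, Mcm3, Mcm5, Mcm6, Mcm7, Orc3, Pola1, Pold1, Pold3, Pole2 and Rfc3. CCAAT, bound by the factor NF-Y, occurred in 62.2% of the 37 genes against 42.0% of measured genes, and TTTGAA, the letters of the cell cycle homology region of mitotic genes, in 13.5% against 15.7%. An E2f match was held by 3 of the 13 genes called higher in mSSC against SSC and by 10 of the 24 that did not pass, a difference that was not tested. A match of letters is a description and does not show that a factor binds there. The windows below are those of Pola1 and Pole2, the 2 genes with an E2f match among those called in every setting for mSSC against SSC, and of Mcm6, which has 2 matches and was not called. Mcm3, whose window is not shown, also has 2 matches and was not called. E2f letters are in capitals, reading 5′ to 3′ along the gene, so that GCGCCAAA is TTTGGCGC on the other strand.
Pola1, chrX:93632106-93632405, minus strand: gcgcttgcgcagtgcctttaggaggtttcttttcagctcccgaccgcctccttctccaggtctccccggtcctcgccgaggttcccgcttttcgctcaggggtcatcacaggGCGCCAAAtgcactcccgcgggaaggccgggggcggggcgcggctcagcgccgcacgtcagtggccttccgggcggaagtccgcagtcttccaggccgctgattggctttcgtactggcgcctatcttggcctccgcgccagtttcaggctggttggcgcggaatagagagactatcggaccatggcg
Pole2, chr12:69228141-69228440, minus strand: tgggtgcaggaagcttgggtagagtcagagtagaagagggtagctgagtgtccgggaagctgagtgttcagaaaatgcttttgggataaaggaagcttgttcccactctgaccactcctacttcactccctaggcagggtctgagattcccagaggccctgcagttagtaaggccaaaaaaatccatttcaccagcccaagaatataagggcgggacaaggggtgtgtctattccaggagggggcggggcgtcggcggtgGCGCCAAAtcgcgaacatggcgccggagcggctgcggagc
Mcm6, chr1:128359656-128359955, minus strand: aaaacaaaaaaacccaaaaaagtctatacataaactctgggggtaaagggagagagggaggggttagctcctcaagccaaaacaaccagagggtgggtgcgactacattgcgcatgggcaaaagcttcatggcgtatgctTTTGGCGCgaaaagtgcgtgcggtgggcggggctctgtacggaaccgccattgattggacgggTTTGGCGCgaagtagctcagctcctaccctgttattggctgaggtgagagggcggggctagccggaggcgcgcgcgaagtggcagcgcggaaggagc
The match begins at base -138 from the start in Pola1 and at base 11 after it in Pole2, and the matches in Mcm6 begin at -110 and -47.

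The origin recognition complex marks the sites where replication can begin. All 6 Orc genes had positive differences in mSSC against SSC, with a median of 1.23, and 3 rose, against 8.22% of all genes. Both mSSC arrays lay above both SSC arrays for all 6, as in 32.3% of all genes. Orc5, an ATP-binding subunit, was at 11.10 and 11.46 in mSSC, 10.03 and 9.51 in iSSC, and 9.06 and 8.92 in SSC. The 3 kinds did not overlap, and Orc5 was higher by 2.28 ± 0.26 in mSSC than in SSC (limma adjusted p = 0.0038) and by 1.50 ± 0.26 than in iSSC (adjusted p = 0.014). Orc6, the smallest subunit, was at 10.94 and 10.87 in mSSC, 10.78 and 10.33 in iSSC, and 8.92 and 9.90 in SSC. It rose by 1.50 ± 0.36 in mSSC against SSC (adjusted p = 0.034), with SSC replicate 1 the lowest array. Orc2, which helps to hold the complex together, was at 10.76 and 10.78 in mSSC, 9.87 and 9.56 in iSSC, and 9.50 and 10.01 in SSC. It was higher in mSSC than in SSC by 1.01 ± 0.25 (adjusted p = 0.039) and than in iSSC by 1.06 ± 0.25 (adjusted p = 0.036), while iSSC and SSC overlapped. A dimmer Orc2 probe set was at 5.52 in SSC replicate 1 and 8.55 in SSC replicate 2, whereas another was at 9.28 and 9.10. Orc1, the largest subunit and the one whose level varies most in the cell cycle, did not pass in any comparison. It was at 10.18 and 10.16 in mSSC, 9.77 and 9.70 in iSSC, and 8.02 and 9.47 in SSC, a difference of 1.43 ± 0.45 between mSSC and SSC (adjusted p = 0.074). Orc3 and Orc4 differed by 0.63 ± 0.29 (adjusted p = 0.18) and 1.04 ± 0.34 (adjusted p = 0.085).

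Cdc6 and Cdt1 bring the Mcm rings to Orc, and both were lowest in SSC. Cdt1 was at 12.95 and 13.40 in mSSC, 13.03 and 12.94 in iSSC, and 12.05 and 12.34 in SSC. It rose by 0.98 ± 0.24 in mSSC against SSC (adjusted p = 0.038), and mSSC and iSSC overlapped. Cdc6 was at 10.68 and 10.58 in mSSC, 10.40 and 10.64 in iSSC, and 8.36 and 9.84 in SSC. The mSSC arrays lay above both SSC arrays, but the SSC replicates differed by 1.48 and the difference of 1.53 ± 0.46 did not pass (adjusted p = 0.067).

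The Mcm2 to Mcm7 ring unwinds DNA at the fork, and none of its 6 genes was called in any comparison. The differences between mSSC and SSC ran from 0.16 ± 0.19 for Mcm7 to 1.01 ± 0.32 for Mcm4, with a median of 0.79. For all 6 both mSSC arrays lay above both SSC arrays, as in 32.3% of all genes. Mcm4 was at 12.67 and 12.30 in mSSC, 11.77 and 11.82 in iSSC, and 11.08 and 11.89 in SSC (adjusted p = 0.074 for mSSC against SSC). Mcm6 was at 13.15 and 12.74 in mSSC, 12.72 and 12.56 in iSSC, and 12.002 and 12.38 in SSC (difference 0.75 ± 0.25, adjusted p = 0.088). In each of these genes SSC replicate 1 was the lowest array, also for Mcm2, Mcm3, Mcm5 and Mcm7. Mcm2, Mcm3 and Mcm5 differed by 0.42 ± 0.22, 0.83 ± 0.29 and 0.83 ± 0.30 between mSSC and SSC (adjusted p = 0.24, 0.10 and 0.11). For Mcm7 the probe set used was at 13.23 to 13.43 on all 6 arrays, and its other 3 probe sets gave mSSC minus SSC differences of 0.37 to 0.69. Other probe sets above the median of all probe sets gave 0.80 for Mcm2 and 1.20 for Mcm4. They gave 1.26 for Mcm5, 1.27 for Mcm6 and 0.37 to 1.52 for Mcm3, and were not tested singly. Between mSSC and iSSC the 6 differences ran from -0.16 to 0.69, with a median of 0.12. With the arrays centred on their medians Mcm4 and Mcm6 passed the threshold in mSSC against SSC.

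Gins and Cdc45 join the Mcm ring to make the active helicase, and Mcm10 is needed to start it. Of these 6 genes 4 rose in mSSC against SSC, where 8.22% of all genes were called higher. Gins2 was at 11.07 and 10.94 in mSSC, 9.30 and 9.12 in iSSC, and 8.34 and 8.56 in SSC. The 3 kinds were apart from each other, and Gins2 was higher in mSSC than in SSC by 2.55 ± 0.21 (adjusted p = 0.0015) and than in iSSC by 1.80 ± 0.21 (adjusted p = 0.0042). Its other probe set gave 2.86 and 1.86. The other Gins subunits, which assemble with Gins2 into 1 complex, moved less. Gins1 rose by 1.02 ± 0.23 (adjusted p = 0.031) and Gins4 by 0.81 ± 0.21 (adjusted p = 0.043), and Gins3 was at 0.62 ± 0.22 (adjusted p = 0.10). Whether the Gins2 difference exceeds those of its partners was not tested. Mcm10 was at 10.65 and 10.94 in mSSC, 10.40 and 10.01 in iSSC, and 8.71 and 9.17 in SSC. It rose by 1.86 ± 0.27 in mSSC against SSC (adjusted p = 0.0075), and iSSC lay between, 1.27 ± 0.27 above SSC (adjusted p = 0.080). Cdc45 had another order: it was at 9.71 and 9.52 in mSSC, 10.46 and 10.23 in iSSC, and 8.96 and 9.74 in SSC. Both iSSC arrays were above all others, but neither the difference from SSC (1.00 ± 0.30, adjusted p = 0.18) nor that of mSSC from iSSC (-0.73 ± 0.30, adjusted p = 0.16) passed.

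The polymerases and primase held the only gene called in all 3 comparisons. Pola1, the catalytic subunit of polymerase alpha and an X-linked gene, was at 10.10 and 10.19 in mSSC, 6.51 and 6.66 in iSSC, and 8.19 and 8.66 in SSC. The 3 kinds did not overlap, with iSSC the lowest. Pola1 was 3.30-fold higher in mSSC than in SSC (1.72 ± 0.24, adjusted p = 0.0066) and 11.8-fold higher than in iSSC (3.56 ± 0.24, adjusted p = 0.0011), and it fell 3.58-fold in iSSC against SSC (-1.84 ± 0.24, adjusted p = 0.029). The fall in iSSC did not pass without iSSC replicate 1 (adjusted p = 0.28), iSSC replicate 2 (0.19) or SSC replicate 1 (0.067), and over all settings its adjusted p ran from 0.028 to 0.28. The second Pola1 probe set lay between 3.36 and 3.64 on all arrays, near background, and averaging both probe sets gave -0.83 (adjusted p = 0.11). The partners of Pola1 in the same complex were not lowest in iSSC. Pola2, its accessory subunit, was at 9.92 and 9.68 in mSSC, 9.35 and 9.41 in iSSC, and 8.66 and 8.95 in SSC, and rose by 1.00 ± 0.22 in mSSC against SSC (adjusted p = 0.026). The primase subunit Prim2 was at 10.77 and 10.48 in mSSC, 10.48 and 10.38 in iSSC, and 9.71 and 9.77 in SSC, and rose by 0.88 ± 0.21 (adjusted p = 0.034). Prim1, the catalytic primase subunit, differed by 0.99 ± 0.44 (adjusted p = 0.18), with its SSC arrays at 10.09 and 11.49.

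Of the polymerases that extend the strands, Pole2 and Pold2 rose and the catalytic subunits did not pass. Pole2, the accessory subunit of polymerase epsilon, was at 11.50 and 11.14 in mSSC, 9.70 and 9.56 in iSSC, and 8.67 and 9.54 in SSC. It rose by 2.22 ± 0.33 in mSSC against SSC (adjusted p = 0.0081) and by 1.69 ± 0.33 against iSSC (adjusted p = 0.018). Pole, the catalytic subunit, was at 10.49 and 10.15 in mSSC, 10.65 and 10.67 in iSSC, and 10.79 and 10.46 in SSC, with a difference of -0.30 ± 0.23 between mSSC and SSC (adjusted p = 0.42). Pold2, the accessory subunit of polymerase delta, was at 11.41 and 11.05 in mSSC, 10.21 and 9.85 in iSSC, and 9.27 and 9.30 in SSC. The 3 kinds were apart, and Pold2 rose by 1.95 ± 0.24 against SSC (adjusted p = 0.0047) and by 1.20 ± 0.24 against iSSC (adjusted p = 0.020). Pold1, the catalytic subunit, was at 11.32 and 11.22 in mSSC, 11.75 and 11.90 in iSSC, and 11.56 and 11.36 in SSC, with a difference of -0.18 ± 0.21 between mSSC and SSC (adjusted p = 0.59). Pold3, a further accessory subunit, did not pass either, at 0.24 ± 0.28 (adjusted p = 0.61). The differences between subunits of 1 polymerase were not tested.

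**Figure D2:**
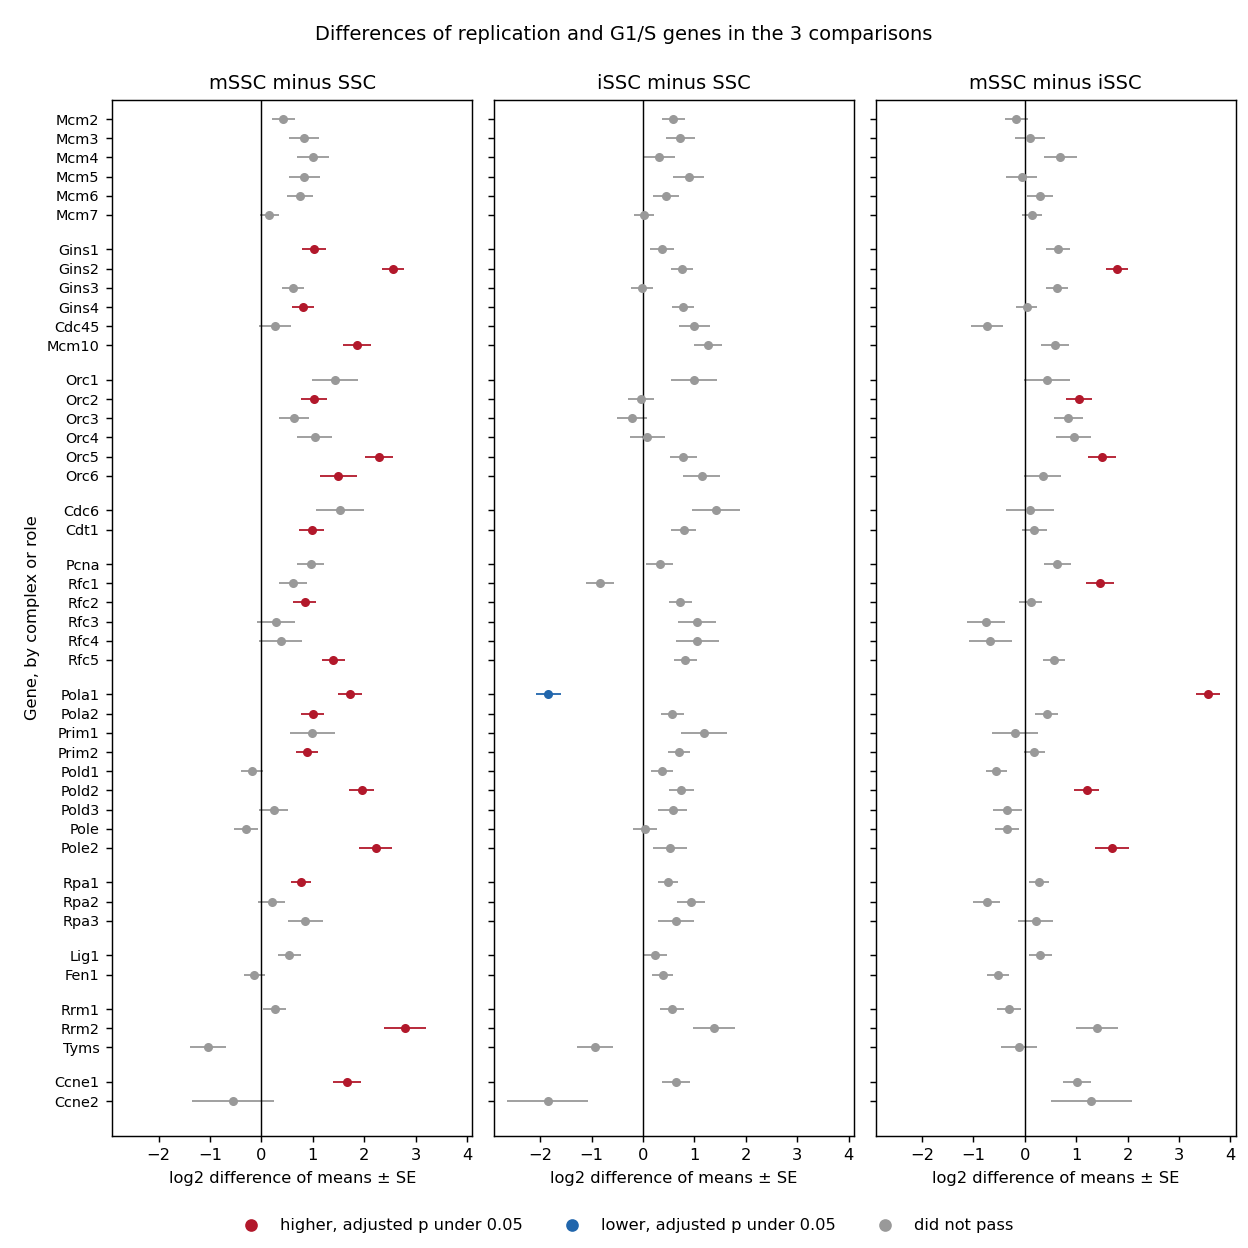
log2 differences of group means ± SE (limma, n = 2 arrays per group) of the 45 genes, by complex or role, in the comparisons mSSC minus SSC, iSSC minus SSC and mSSC minus iSSC. Red points are called higher and blue points lower; 18 genes are red on the left, only Pola1 is coloured in the middle, and 7 are red on the right.

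Pcna is the ring that holds polymerases on DNA, and Rfc1 to Rfc5 form the loader that opens it. Pcna was at 13.96 and 13.90 in mSSC, 13.29 and 13.30 in iSSC, and 12.65 and 13.30 in SSC. Both mSSC arrays were above the others, and the difference from SSC, 0.95 ± 0.26, missed the threshold (adjusted p = 0.052). Rfc5 was at 11.998 and 11.96 in mSSC, 11.54 and 11.27 in iSSC, and 10.46 and 10.70 in SSC, and rose by 1.40 ± 0.22 in mSSC against SSC (adjusted p = 0.0090). Rfc2 was at 11.20 and 11.11 in mSSC, 11.21 and 10.86 in iSSC, and 10.27 and 10.36 in SSC, and rose by 0.84 ± 0.22 (adjusted p = 0.044). In both genes the iSSC arrays lay above the SSC arrays without passing the test. Rfc1, the large subunit, was lowest in iSSC: it was at 10.87 and 10.43 in mSSC, 9.19 and 9.20 in iSSC, and 10.30 and 9.77 in SSC. It was higher by 1.46 ± 0.27 in mSSC than in iSSC (adjusted p = 0.016), and iSSC minus SSC was -0.84 ± 0.27 (adjusted p = 0.20). The call against iSSC was lost without mSSC replicate 1 or either iSSC array and with probe sets averaged (adjusted p = 0.010 to 0.11 over all settings). The other Rfc1 probe sets gave mSSC minus iSSC differences of 1.42 and 1.33. Rfc3 and Rfc4 had their highest means in iSSC and did not pass in any comparison, with iSSC minus SSC at 1.04 ± 0.37 (adjusted p = 0.23) and 1.05 ± 0.42 (adjusted p = 0.28).

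Probe sets of 1 gene could differ in their iSSC values. The main Orc4 probe set was at 10.83 and 10.38 in mSSC, 9.78 and 9.51 in iSSC, and 9.13 and 9.99 in SSC, so that iSSC and SSC overlapped. Both dimmer Orc4 probe sets above the median of all probe sets were lowest in iSSC. 1 of them was at 7.25 and 7.26 in mSSC, 4.63 and 5.27 in iSSC, and 7.31 and 6.96 in SSC, an iSSC minus SSC difference of -2.18. The other was at 6.86 and 7.31 in mSSC, 5.18 and 5.55 in iSSC, and 6.30 and 6.73 in SSC, a difference of -1.15. Of the 29 genes with several probe sets above the median of all probe sets (5.87), every probe set had the same sign in 27 for mSSC against SSC, in 24 for iSSC against SSC and in 21 for mSSC against iSSC. The genes with mixed signs were Cdc45 and Fen1 for mSSC against SSC, and Gins3, Orc2, Orc4, Pold1 and Rfc1 for iSSC against SSC. Those for mSSC against iSSC were Mcm2, Mcm3, Mcm4, Mcm5, Mcm6, Pold3, Prim2 and Rfc2.

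**Figure D3:**
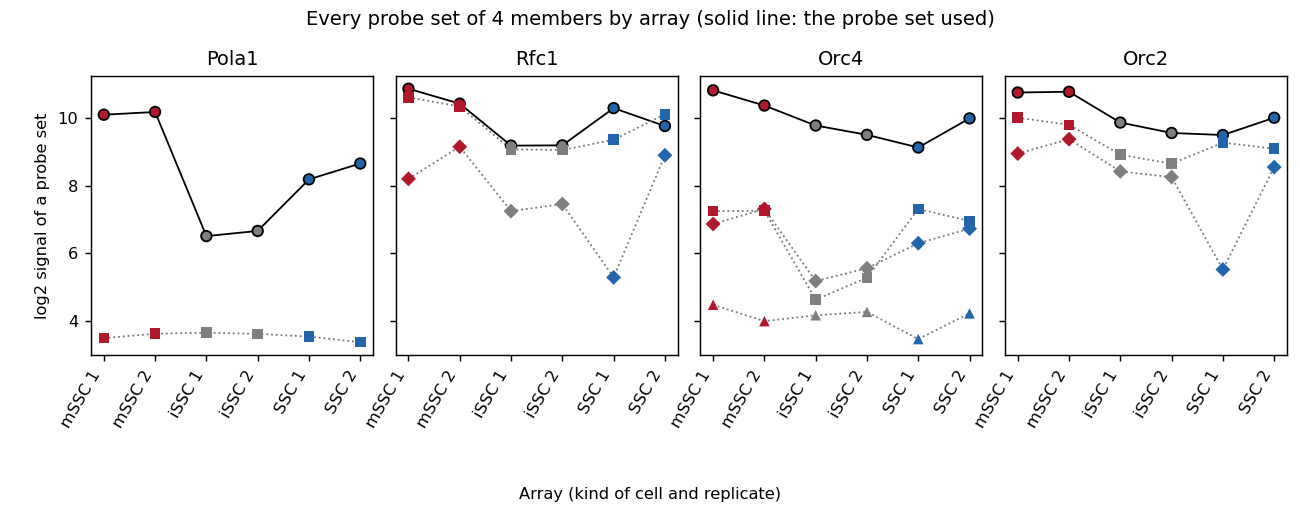
log2 signals of every probe set of Pola1, Rfc1, Orc4 and Orc2 on the 6 arrays (mSSC red, iSSC grey, SSC blue); the solid line joins the values of the probe set used and dotted lines those of the others. Pola1 is lowest in iSSC, with its second probe set near 3.5 throughout, and single dim probe sets of Rfc1 and Orc2 drop in SSC replicate 1 to 5.28 and 5.52.

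Rpa coats single-stranded DNA at the fork. Rpa1, its large subunit, was at 13.25 and 13.21 in mSSC, 12.92 and 12.97 in iSSC, and 12.42 and 12.51 in SSC. The kinds did not overlap, and Rpa1 rose by 0.77 ± 0.19 in mSSC against SSC (adjusted p = 0.041). Rpa2 had its highest values in iSSC: it was at 11.56 on both mSSC arrays, 12.41 and 12.18 in iSSC, and 11.05 and 11.67 in SSC, and no difference passed (mSSC minus SSC 0.20 ± 0.27, adjusted p = 0.66). Rpa3 differed by 0.85 ± 0.34 between mSSC and SSC (adjusted p = 0.14). Fen1, which trims the flaps of lagging strand fragments, was at 11.93 and 11.66 in mSSC, 12.29 and 12.33 in iSSC, and 11.98 and 11.89 in SSC. Lig1, the ligase that joins those fragments, was at 12.25 and 12.07 in mSSC, 11.87 and 11.85 in iSSC, and 11.80 and 11.44 in SSC. Neither passed in a comparison: mSSC minus SSC was -0.14 ± 0.21 for Fen1 (adjusted p = 0.69) and 0.54 ± 0.22 for Lig1 (adjusted p = 0.15).

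Ribonucleotide reductase makes deoxynucleotides from the large subunit Rrm1 and the small subunit Rrm2, which is made in S phase. Rrm2 was at 12.80 and 12.91 in mSSC, 11.29 and 11.62 in iSSC, and 9.44 and 10.70 in SSC. The 3 kinds did not overlap, and Rrm2 rose by 2.79 ± 0.41 in mSSC against SSC (adjusted p = 0.0081), the largest difference among the 45 genes. Its other probe sets gave 3.23 and 3.70. Neither mSSC against iSSC (1.40 ± 0.41, adjusted p = 0.066) nor iSSC against SSC (1.38 ± 0.41, adjusted p = 0.17) passed. Rrm1 was at 11.68 and 11.55 in mSSC, 11.97 and 11.87 in iSSC, and 11.14 and 11.58 in SSC, with a difference of 0.25 ± 0.23 between mSSC and SSC (adjusted p = 0.50). Tyms, which makes the thymidine nucleotide, had no probe set of its own symbol with a mean above the median of all probe sets. The probe set used was at 4.69 and 5.57 in mSSC, 5.26 and 5.21 in iSSC, and 6.44 and 5.903 in SSC (mSSC minus SSC -1.04 ± 0.35, adjusted p = 0.087), and a further probe set that is also listed for a Tyms pseudogene was not used.

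The E cyclins activate the kinase that starts S phase. Ccne1 was at 10.56 and 9.94 in mSSC, 9.38 and 9.07 in iSSC, and 8.65 and 8.52 in SSC. The 3 kinds did not overlap, and Ccne1 rose 3.16-fold in mSSC against SSC (1.66 ± 0.28, adjusted p = 0.011), with 1.02 ± 0.28 against iSSC (adjusted p = 0.052). Its other probe set gave 3.07 and 2.51. Ccne2 was at 7.36 and 7.10 in mSSC, 5.73 and 6.14 in iSSC, and 6.43 and 9.14 in SSC. SSC replicate 2 was far above SSC replicate 1, and no comparison passed (mSSC minus SSC -0.56 ± 0.79, adjusted p = 0.68). Without SSC replicate 1 Ccne2 was called lower in mSSC than in SSC (adjusted p = 0.022), and without SSC replicate 2 the difference was 0.80 (adjusted p = 0.12), so that its direction rests on 1 array.

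The replicates of SSC were the most spread, in these genes and over all genes. SSC replicate 1 was below SSC replicate 2 for 36 of the 45 genes, against 37.6% of all genes, with a median gap of 0.38, against -0.14 over all genes. Of 84 probe sets of these genes above the median of all probe sets, 19 were more than 2-fold lower in SSC replicate 1 than in replicate 2 and none more than 2-fold higher, against 12.3% and 6.33% of all such probe sets. In mSSC 1 probe set and in iSSC 0 differed by more than 2-fold in that direction. The median SD of the 45 genes was 0.13 in mSSC, 0.11 in iSSC and 0.31 in SSC, against 0.21 in mSSC, 0.14 in iSSC and 0.25 in SSC over all genes. SSC replicate 1 was also the array with the stronger 3′ bias and the higher macrophage and fibroblast signal. Without it the median difference of the 45 genes was 0.69 in mSSC against SSC and 0.42 in iSSC against SSC.

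Beyond the 45 genes, 6 other lists of the pathway and of mitosis were examined in mSSC against SSC, and the difference between lists was not tested. These lists were written with earlier results of these data known. Of 60 measured genes of 5 further replication lists 4 rose (6.67%) and 2 fell (3.33%), with a median of 0.28. These shares are near or below the 8.22% and 10.6% over all genes, so the counts do not set these lists apart. Of 19 mitosis genes 9 rose (47.4%, against 8.22% of all genes) with a median of 1.18, and none fell by limma. At an unadjusted limma p under 0.05 12 were higher and none lower, against 15.4% and 18% of all genes. Among 14 genes that control licensing and origin firing 1 rose, Ticrr, which helps to load Cdc45 (1.67 ± 0.23, adjusted p = 0.0061). Gmnn, the inhibitor of Cdt1, was at 0.86 ± 0.30 (adjusted p = 0.095). Of 13 genes of the E2f and Rb families 1 rose, the activator E2f2 (0.87 ± 0.21, adjusted p = 0.034), and 2 fell, shares of 7.69% and 15.4% that lie close to those over all genes. Those lower were Rb1, which restrains E2f factors (-1.13 ± 0.23, adjusted p = 0.020), and its relative Rbl2 (-1.06 ± 0.23, adjusted p = 0.025). E2f1 and E2f3 went the other way from E2f2 without passing, at -0.40 ± 0.23 (adjusted p = 0.28) and -0.40 ± 0.39 (adjusted p = 0.53). Of the 13 differences 7 were positive and 6 negative. Of 8 further genes of nucleotide supply 2 rose, both enzymes of thymidine nucleotides: Dtymk by 1.34 ± 0.25 (adjusted p = 0.017) and Tk1 by 1.15 ± 0.24 (adjusted p = 0.024). Of 17 fork accessory factors and 8 chromatin assembly factors none passed by limma. At an unadjusted limma p under 0.05 3 and 1 were higher and none lower, against 15.4% higher and 18% lower over all genes. In the mitosis list Cdk1 was at 12.05 and 11.96 in mSSC, 10.92 and 10.71 in iSSC, and 10.08 and 10.27 in SSC, and rose by 1.83 ± 0.21 against SSC (adjusted p = 0.0038) and by 1.19 ± 0.21 against iSSC (adjusted p = 0.014). In iSSC against SSC none of the 79 genes of these 6 lists was called by limma, when 0.225% of all genes were called higher and 1.87% lower. At an unadjusted limma p under 0.05 16 were higher and 11 lower, against 8.28% and 8.7% of all genes.

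**Figure D4:**
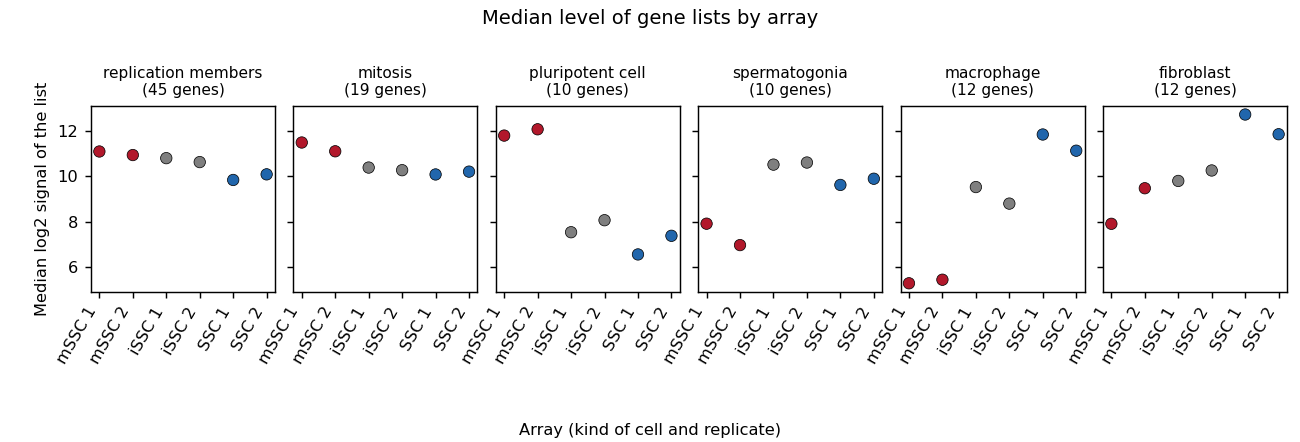
Median log2 signal of 6 gene lists on each array (mSSC red, iSSC grey, SSC blue): the 45 replication genes, 19 mitosis genes, and markers of pluripotent cells, spermatogonia, macrophages and fibroblasts. The replication median is 11.10 and 10.94 in mSSC, 10.80 and 10.63 in iSSC, and 9.84 and 10.09 in SSC, while the macrophage median is 5.27 and 5.43 in mSSC, 9.53 and 8.79 in iSSC, and 11.85 and 11.13 in SSC.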

How the data were processed

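RNA of 6 samples, 2 each of mSSC, iSSC and SSC, was measured on Affymetrix arrays. Total RNA (Trizol), 10 µg per the labels, was amplified and labelled with biotin by Nugen kits. The authors deposited log2 signals per probe set, made with RMA per the submitters' processing notes (background subtraction, quantile normalization, probe summary), with no version named there. Exactly 1 symbol was annotated for 34958 of the 45101 probe sets, several for 932 and none for 9211. The brightest probe set over 6 arrays stood for a gene, leaving 18194 genes. 0 columns were left out, and no filter or further normalization was applied.

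Differences between group means, 2-sided, came from 1 limma fit (3.58.1, R 4.3.3) of all 6 arrays with moderated variances. Precision is limited by the few arrays. The 45 genes were given as a fixed list of symbols. The other lists were written with earlier results of these data known, and whether the list of 45 was too is not stated. All 45 genes may be named. Of each other pathway list those with the smallest p in mSSC against SSC may be named, with E2f1 and E2f3 added beside E2f2. A few markers may be named too. Alternatives were a replicate block, a filter on dim genes, 2 scalings, averaged probe sets, 4-array fits, another variance prior, and leaving out each array. In each comparison, leaving out an array of the group not compared gives the same fit as the 4-array one, so these settings repeat each other. The labels share replicate numbers across groups but say nothing of a shared origin. The replicate 1 minus replicate 2 differences correlated at 0.17, 0.068 and 0.12 across genes between the groups, so the samples were treated as sharing only a number.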

Additional observations from a re-analysis of the deposited data

How the results depend on the processing

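With the replicate block 14 genes were called higher in mSSC against SSC, 0 in iSSC against SSC and 8 in mSSC against iSSC, and 148 genes in all, against 381, in iSSC against SSC. The fit on the 4 arrays compared gave 9 of the 45 genes and 1966 in all for mSSC against SSC, where fewer samples estimate the spread. Averaged probe sets gave 0 genes lower and 29 in all in iSSC against SSC. With arrays centred on their medians the median of all genes was 0.33 in mSSC against SSC, against 0.08, it was 0.18 in mSSC against iSSC, against -0.01, and 0.17 in iSSC against SSC, against 0.10. The median of the 45 genes in mSSC against SSC was then 1.10, still 0.76 above all genes, with 24 called higher. Mcm4, Mcm6, Gins3, Cdc6, Pcna and Lig1 were those added, and the differences of Pold1 and Fen1 turned positive, at 0.071 and 0.12, without passing. That centring gave 2527 higher and 1432 lower calls over all genes in mSSC against SSC, against 1495 and 1930, and 1771 and 1340 in mSSC against iSSC, against 1370 and 1747. Quantile normalization gave 1536 and 1515 there.

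Leaving out each array in turn gave, in mSSC against SSC, 9 to 22 genes higher, 0 to 1 lower, a median of 0.69 to 1.12 and 1966 to 3462 genes in all, against 3425. In iSSC against SSC it gave 0 to 4 higher, 0 to 1 lower and 0 to 503 in all, and in mSSC against iSSC 2 to 9 higher and 604 to 3724 in all, against 3117. The lower call without mSSC replicate 2 was Tyms and that without SSC replicate 1 was Ccne2. The genes called with all 6 arrays kept their sign under each setting. Some that were not called changed sign, among them Ccne2, Pold1 and Fen1 in mSSC against SSC. With 2 arrays a group, a difference of 1.53 (Cdc6, mSSC minus SSC) was not called.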
